A study of Mus musculus with 6 samples.

Results

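The genes described here were 7 mouse lipocalin genes, Lcn2, Lcn5, Lcn6, Lcn8, Lcn9, Lcn10 and Lcn12, together with Ptgds, which encodes the lipocalin-type prostaglandin D synthase. They were taken by symbol, from probe sets that carry exactly 1 gene symbol, and make up 8 of the 23152 genes and 67 of the 233753 probe sets that could be named in this way. They were chosen with knowledge of, and in part selected on, their difference in gene mean between these same control and mutant arrays, so that their differences below are a description and carry no test. The RNA came from germ cell preparations of FVB mouse testes at 23 days of age and was measured on 6 Mouse Gene 2.0 ST arrays. The 3 arrays called control carry RNA of mice with the floxed gene alone (Mgat1[F/F]), and the 3 called Mgat1 cKO carry RNA of Mgat1[F/F]:Stra8-iCre mice, labelled Mgat1 mutant. Both groups share the floxed Mgat1 alleles, and the Stra8 promoter that drives iCre in the mutants is active in spermatogonia. Each genotype is 1 pool of RNA from 6 mice, divided into 3 aliquots. The spread between arrays is therefore that between aliquots of a pool, and neither the SD nor any p-value here covers differences between mice.

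Lipocalins are small proteins, most of them secreted, that fold into a barrel around a pocket for retinoids, steroids, fatty acids or other small hydrophobic molecules. In the mouse, several members of the family lie side by side on chromosome 2 and are known from the epididymis, the duct in which sperm mature after leaving the testis, where principal cells of given segments secrete them into the lumen under the control of androgen and of factors from the testis. Lcn2 and Ptgds are known from many tissues, the first as a binder of bacterial siderophores made by neutrophils and inflamed epithelia, and the second as the enzyme that makes prostaglandin D2 and as a carrier protein of body fluids.

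All 8 genes were found in the RefSeq promoter table (GRCm38.p6), which gives 250 bases before and 50 bases after a transcript start. The promoters of the 4 genes whose Mgat1 cKO arrays all lay below the control arrays (Lcn5, Lcn8, Lcn6 and Lcn2) are printed to show what sequence these genes do and do not share. They are read 5' to 3' on the strand of the gene, from chr2:25657702-25658001 (plus strand), chr2:25652868-25653167 (plus strand), chr2:25676536-25676835 (plus strand) and chr2:32387690-32387989 (minus strand). Capitals mark matches to the core of a TATA box (TATAA), to a half-site of the androgen response element (AGAACA) and to the form bound by C/EBP factors (TTGCNNAA).
Lcn5: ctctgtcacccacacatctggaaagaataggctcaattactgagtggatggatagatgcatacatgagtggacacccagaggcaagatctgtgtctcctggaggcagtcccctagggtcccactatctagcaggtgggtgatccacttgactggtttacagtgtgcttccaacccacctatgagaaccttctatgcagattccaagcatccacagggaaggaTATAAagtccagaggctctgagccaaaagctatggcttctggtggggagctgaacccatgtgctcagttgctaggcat
Lcn8: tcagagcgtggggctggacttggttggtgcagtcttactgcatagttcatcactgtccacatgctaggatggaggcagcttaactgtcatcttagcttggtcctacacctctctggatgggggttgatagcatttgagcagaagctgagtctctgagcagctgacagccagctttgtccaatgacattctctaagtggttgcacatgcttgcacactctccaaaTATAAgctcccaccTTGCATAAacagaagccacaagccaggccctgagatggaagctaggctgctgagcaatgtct
Lcn6: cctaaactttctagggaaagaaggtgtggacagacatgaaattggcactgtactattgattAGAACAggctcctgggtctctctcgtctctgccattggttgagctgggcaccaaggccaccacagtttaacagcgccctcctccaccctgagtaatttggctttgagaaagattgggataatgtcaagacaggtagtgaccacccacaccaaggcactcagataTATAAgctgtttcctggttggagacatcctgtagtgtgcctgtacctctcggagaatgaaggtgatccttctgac
Lcn2: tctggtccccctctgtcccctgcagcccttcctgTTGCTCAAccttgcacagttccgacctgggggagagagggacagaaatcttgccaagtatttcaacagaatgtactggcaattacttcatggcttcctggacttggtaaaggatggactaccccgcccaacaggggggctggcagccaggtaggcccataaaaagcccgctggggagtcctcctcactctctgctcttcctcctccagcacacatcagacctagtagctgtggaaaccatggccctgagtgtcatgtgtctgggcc

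The letters TATAA stood at position -28 from the transcript start in Lcn5, -26 in Lcn8 and -25 in Lcn6, which lie next to each other on the chromosome. Searched on the strand of the gene, these letters are present at any position of the window in 17.5% of the 32851 promoters of the table. They are present in 3 of the 8 genes described. This motif was chosen after the sequences had been seen. The letters AGAACA were searched on both strands and occurred in 4 of the 8 promoters, those of Lcn6 (position -189), Lcn9, Lcn10 and Lcn12, against 19% of all promoters. TTGCNNAA occurred on either strand in 10.8% of all promoters and in 2 of the 8, Lcn8 at position -12 and Lcn2 at position -216. Neither the forkhead motif TGTTTAC (3.65% of all promoters) nor the NF-kappa B motif (5.56%), both searched on either strand, was found in any of the 8 windows. A match describes the letters only, and the windows say nothing of which factors were bound.

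The targeted gene itself did not separate the arrays. Mgat1, the GlcNAc-transferase that begins complex N-glycan synthesis, read 6.17, 6.44 and 6.33 (mean log2 value of its 12 probe sets) on the control arrays and 6.35, 6.10 and 6.45 on the Mgat1 cKO arrays, and limma gave an adjusted p of 0.94. Probe set 17248953 was the only one of the 12 with all Mgat1 cKO arrays below the control arrays, at 6.71, 6.54 and 6.66 in control and 5.80, 5.33 and 5.75 in Mgat1 cKO RNA (-1.01, SE 0.16). Probe set 17248948 separated the arrays the other way, with every Mgat1 cKO array above control (0.41, SE 0.13). The sources used here do not place the probe sets relative to the deleted stretch, so the gene mean does not check the genotype, and every direction below rests on the arrays as labelled. Among all genes, 543 were lower (2.35%) and 1405 higher (6.07%) in Mgat1 cKO at a limma adjusted p under 0.05, and the median difference over all genes was -0.05. With a difference over 2-fold as well, 8 genes were lower (0.0346%) and 586 higher (2.53%). All 10 listed germ cell markers lay above a background level of 6.11, set as the 95th percentile over 290 vomeronasal receptor genes, but so did all 10 Sertoli, all 5 Leydig and all 6 peritubular myoid cell markers measured and 5 of 6 macrophage markers, so that the arrays also read markers of somatic cells.

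Of the epididymal lipocalins, Lcn5 had the largest difference between the genotypes, followed in gene mean by its neighbours Lcn8 and Lcn6. With the median of the probe sets in place of the mean, Lcn5 stood at -0.75, Lcn6 at -0.45 and Lcn8 at -0.24, so the order of Lcn8 and Lcn6 depends on the summary. Lcn10, Lcn9 and Lcn12 overlapped between the genotypes. Values are log2 RMA values averaged over the probe sets of a gene. Differences are Mgat1 cKO minus control with the standard error (SE) of limma fitted over all genes. Levels are compared between arrays, and not between genes except against the background level and the median level of the array. In RNA of whole preparations, fewer cells that express a gene and less RNA of it per cell cannot be told apart.

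Lcn5 encodes the epididymal retinoic acid-binding protein and spans chr2:25657932-25662230. Its 9 probe sets averaged 6.77, 6.69 and 6.82 on the control arrays and 6.12, 6.18 and 6.06 on the Mgat1 cKO arrays. The groups did not overlap, and the lowest control array, replicate 2, lay above the highest Mgat1 cKO array, also replicate 2. The means were 6.76 ± 0.07 (SD, n = 3 arrays) and 6.12 ± 0.06 (SD, n = 3), a difference of -0.64 (SE 0.07) or 1.56-fold, which was number 33 from the bottom of the 23152 genes ordered by difference. The control level stood 0.65 above the background level, and the Mgat1 cKO level stood 0.01 above it.

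Lcn8, a retinoid-binding lipocalin of the initial segment of the epididymis, lies next to Lcn5 at chr2:25653118-25656217. It read 5.38, 5.12 and 5.08 in control and 4.83, 4.88 and 4.80 in Mgat1 cKO RNA, with control replicate 1 the highest and all 3 Mgat1 cKO arrays below the lowest control array. The difference was -0.36 (SE 0.09), or 1.28-fold, and -0.26 without control replicate 1. Lcn6, a lipocalin of the epididymis, lies on the other side of Lcn5 at chr2:25676638-25681608 and read 5.38, 5.31 and 5.36 in control against 5.21, 5.10 and 5.14 in Mgat1 cKO RNA. Its arrays did not overlap, with a difference in gene mean of -0.20 (SE 0.06), or 1.15-fold. Both genes stood below the background level in control and in Mgat1 cKO RNA.

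Lcn10, the next gene along at chr2:25682726-25686081, read 5.58, 5.45 and 5.51 in control and 5.25, 5.46 and 5.42 in Mgat1 cKO RNA, a difference of -0.13 (SE 0.08). Mgat1 cKO replicate 1 was low, and replicate 2 lay within the control values. Lcn9, at the far end of the group of genes at chr2:25823088-25825546, read 4.82, 4.94 and 5.03 in control against 5.23, 5.05 and 4.63 in Mgat1 cKO RNA. The Mgat1 cKO arrays of Lcn9 spread on either side of control, and the difference of 0.04 (SE 0.14) became 0.21 without Mgat1 cKO replicate 3 and -0.09 without Mgat1 cKO replicate 1. Lcn12, a further epididymal lipocalin at chr2:25490845-25494061, read 5.98, 6.07 and 5.92 in control and 6.00, 5.90 and 6.15 in Mgat1 cKO RNA, so that the groups lay on top of each other (difference 0.02, SE 0.08). All 3 of these genes were below the background level.

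**Figure D1:**
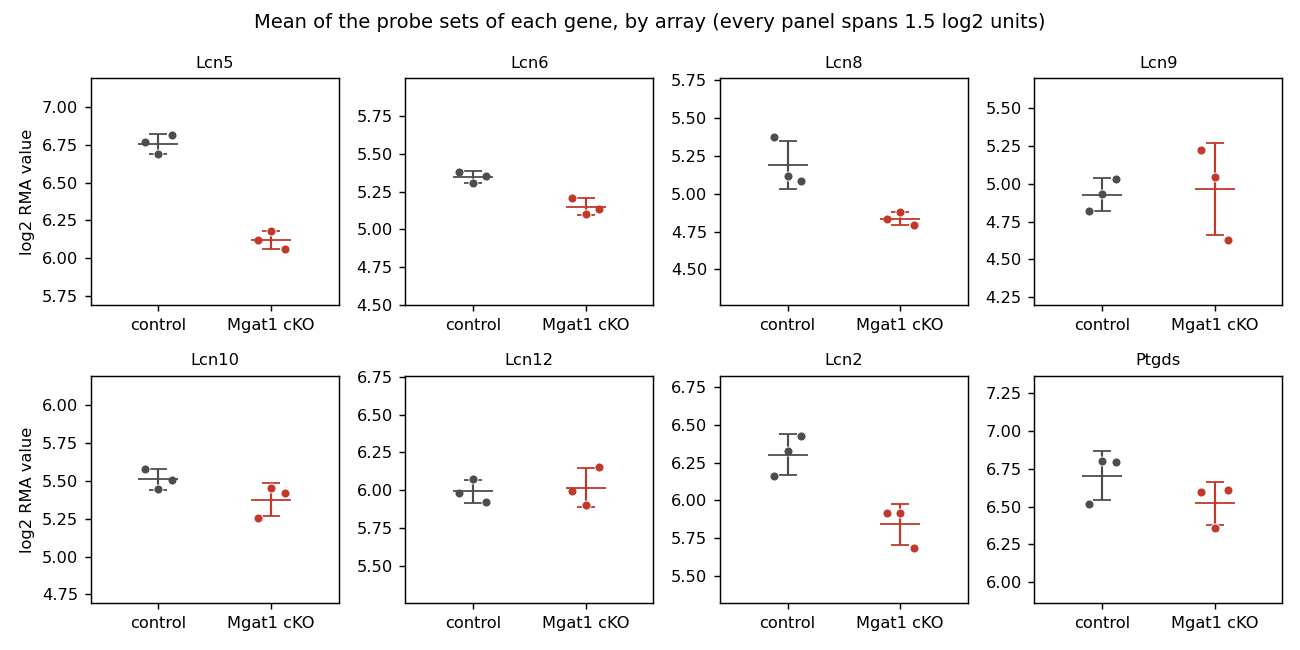
Log2 RMA value of each gene (vertical axis, every panel spans the same range of log2 units) on the 3 control and 3 Mgat1 cKO arrays, as points, with the mean and SD as lines. The Mgat1 cKO points of Lcn5 lie between 6.06 and 6.18, below the control points at 6.69 to 6.82, whereas the points of Lcn9, Lcn10, Lcn12 and Ptgds overlap.

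Lcn2, the neutrophil gelatinase-associated lipocalin, lies apart from the others on chromosome 2 at chr2:32384637-32387739. Over 10 probe sets it read 6.16, 6.32 and 6.43 in control and 5.92, 5.92 and 5.69 in Mgat1 cKO RNA. All Mgat1 cKO arrays were below all control arrays, with the lowest value in Mgat1 cKO replicate 3. The difference of -0.46 (SE 0.10), or 1.38-fold, was the next largest of the 8 after that of Lcn5 and number 127 from the bottom of all genes. The mean of Lcn2 moved from 0.19 above the background level to 0.27 below it.

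Ptgds turns prostaglandin H2 into prostaglandin D2 and lies at the near end of the group of genes, at chr2:25466709-25470110. It read 6.52, 6.80 and 6.80 in control and 6.60, 6.36 and 6.61 in Mgat1 cKO RNA. The groups overlapped through control replicate 1, which lay below 2 of the 3 Mgat1 cKO arrays. The difference was -0.18 (SE 0.11), and it was -0.28 without control replicate 1 and -0.10 without Mgat1 cKO replicate 2. With Lcn5, Ptgds was the only one of the 8 above the background level over all 6 arrays.

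Over the group, 6 of 8 genes had a lower mean in Mgat1 cKO RNA (64.5% of all genes did), 4 of 8 had all Mgat1 cKO arrays below all control arrays (20.1% of all genes), and 0 of 8 had them all above (11.2%). The median difference of the 8 was -0.19, against -0.05 over all genes. The genes were chosen with this contrast known, and nothing is read from these shares.

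The gene means hid large differences between the probe sets of a gene, each of which reads a short stretch of it. In Lcn5, 4 of 9 probe sets had every Mgat1 cKO array below control, with a mean difference of -1.44, while the other 5 averaged 0.00. The probe sets were split by their own differences, so the gap between these means is in part set by the split. Probe set 17368135 read 6.80, 7.05 and 7.21 in control and 4.0, 4.08 and 4.68 in Mgat1 cKO RNA. Its difference was -2.77 (SE 0.22), number 10 from the bottom of the 233753 probe sets, and its Mgat1 cKO values lie below the background level of 6.11, which was set on gene means, so that no fold is given. Probe set 17368134 read 7.31, 7.33 and 7.39 in control and 6.07, 6.40 and 5.77 in Mgat1 cKO RNA (-1.26, SE 0.18), and probe set 17368133 read 7.87, 7.88 and 7.79 against 6.75, 6.67 and 6.49 (-1.21, SE 0.12). Next to these in number, probe set 17368136 read 7.89, 7.97 and 7.82 in control and 7.95, 7.75 and 7.85 in Mgat1 cKO RNA, with no separation of the groups (-0.04, SE 0.11). Without probe set 17368135 the gene difference of Lcn5 was -0.37, an alternative chosen after its values were seen.

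Split in the same way, Lcn2 had 5 of 10 probe sets below control on every Mgat1 cKO array (mean difference -0.96). The other 5 averaged 0.04, and of these 17383900 and 17383901 had control means of 3.31 and 3.11, where little room is left for a fall. Of the probe sets below control, 17383902 had the largest difference (-1.29, SE 0.28). It read 7.56, 7.24 and 7.33 in control and 6.15, 6.58 and 5.52 in Mgat1 cKO RNA. Probe set 17383895 read 9.45, 9.29 and 9.60 in control and 8.95, 8.57 and 8.70 in Mgat1 cKO RNA (-0.71, SE 0.15). Probe set 17383903 read 8.26, 8.11 and 8.12 against 7.83, 8.19 and 8.16, so that the arrays overlapped (-0.11, SE 0.14). The order of these probe sets along the genes and their exons are not given in the sources used here.

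**Figure D2:**
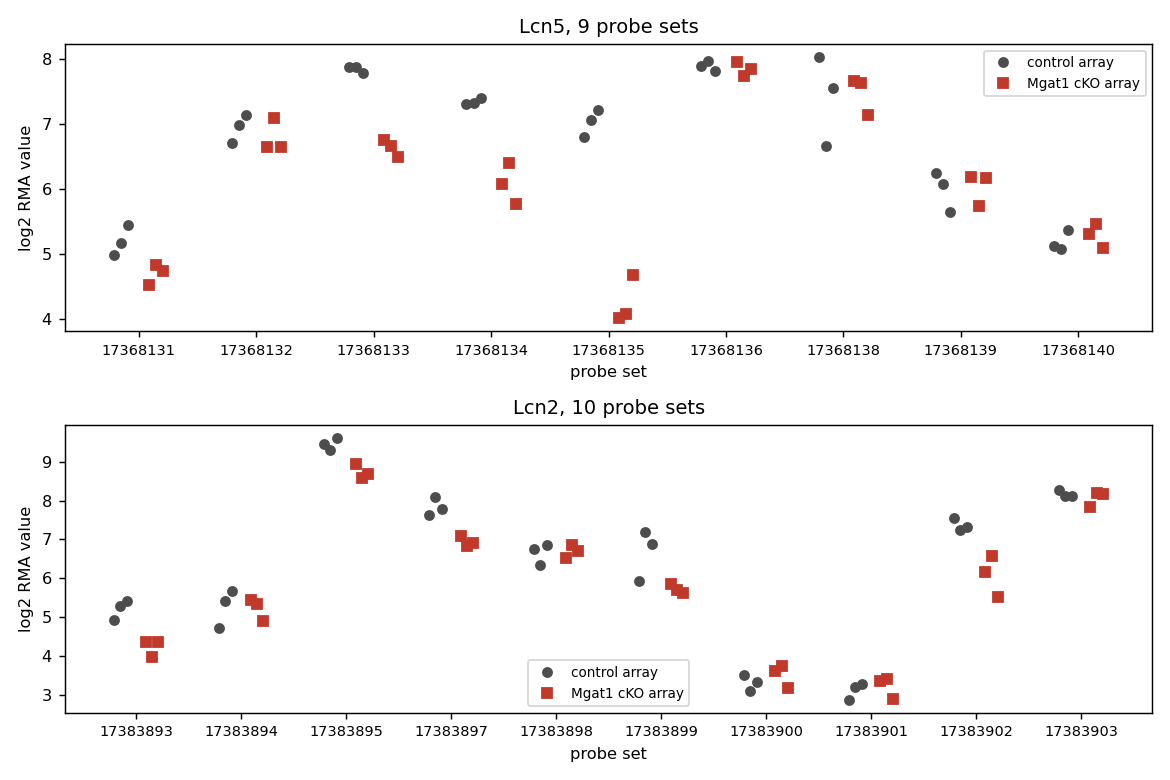
Log2 RMA value (vertical axis) of every probe set of Lcn5 (top) and Lcn2 (bottom) on the 3 control arrays (circles) and the 3 Mgat1 cKO arrays (squares). In Lcn5 the groups separate by -2.77 in probe set 17368135 and overlap in 17368136, and in Lcn2 they separate in 5 of 10 probe sets.

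In the other genes the separation rested on 1 or 2 probe sets or was absent. In Lcn8, probe set 17368125 read 6.21, 6.44 and 5.82 in control and 5.29, 5.65 and 5.25 in Mgat1 cKO RNA (-0.76, SE 0.20), and 17368124 was also below control on every Mgat1 cKO array (-0.36). The largest difference in mean in Lcn8, -0.88 in probe set 17368126, came with overlapping arrays. In Lcn6, probe set 17368148 read 5.55, 5.23 and 5.31 in control and 4.88, 3.25 and 4.67 in Mgat1 cKO RNA. Its difference of -1.10 (SE 0.43) leaned on the low value of Mgat1 cKO replicate 2 and was -0.59 without that array. Probe set 17368152 of Lcn6 was also below control on every Mgat1 cKO array (-0.14). The 11 probe sets of Lcn6 ranged from -1.10 to 0.49. The upper end, 17368143, read 3.14, 3.19 and 3.19 in control and 4.86, 3.13 and 3.00 in Mgat1 cKO RNA. It leaned on Mgat1 cKO replicate 1.

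Lcn10 had 1 of 7 probe sets, 17368160, that separated the genotypes, at 4.81, 4.49 and 4.57 in control and 3.64, 3.71 and 3.75 in Mgat1 cKO RNA (-0.92, SE 0.13). The other 6 probe sets of Lcn10 averaged 0.00. Lcn9 and Lcn12 held probe sets that separated in either direction. In Lcn9, 17368205 was below control on every Mgat1 cKO array (-0.34) and 17368208 above it (0.51), and in Lcn12, 17382609 (-0.24) and 17382611 (-0.34) were below and 17382605 (0.44) above. In Ptgds, 17382596 (-0.33) and 17382599 (-0.30) lay below control, 8 of 9 probe sets had a lower mean, and the largest difference was -0.41 in 17382593, whose arrays overlapped and whose difference was 0.27 without Mgat1 cKO replicate 2. Probe set 17382601 of Ptgds read 11.9, 11.9 and 11.8 in control and 11.8, 11.7 and 11.9 in Mgat1 cKO RNA, with overlapping arrays (-0.12, SE 0.11).

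Over all 67 probe sets, 45 had a lower mean. The share of all probe sets with a lower mean is not given here, and 64.5% of all genes had one. The 8 of 9 probe sets of Ptgds likewise have no such share beside them. Every Mgat1 cKO array was below control in 19 of the 67 (10.8% of all probe sets) and above it in 2 (8.47%). A mean over 2-fold lower was found in 5 (0.913%), namely 3 of Lcn5, 1 of Lcn6 and 1 of Lcn2. As above, nothing is read from these shares. The number of probe sets at or above the median level of the array was 3 in each of Lcn5, Lcn2 and Ptgds, 2 in each of Lcn6 and Lcn12, and 0 in Lcn8, Lcn9 and Lcn10, so that the values of the last 3 genes came from dim probe sets alone.

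**Figure D3:**
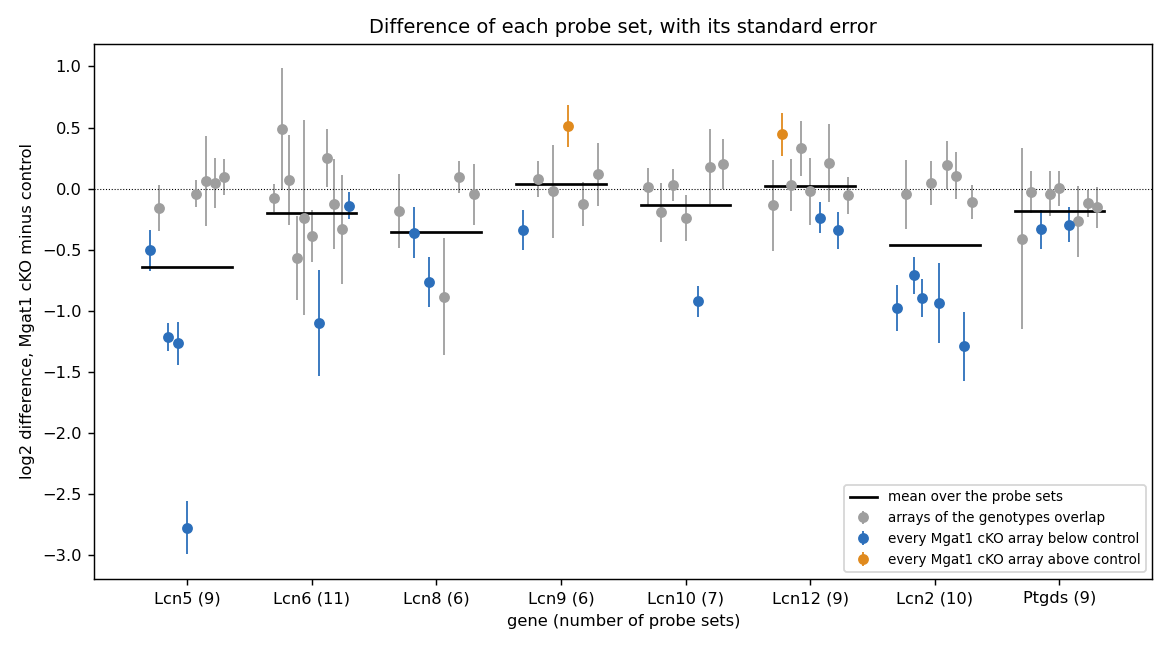
Log2 difference, Mgat1 cKO minus control (vertical axis), of each of the 67 probe sets with its SE, by gene (horizontal axis), coloured by whether the arrays of the genotypes overlap, with the gene mean as a black line. The lowest points are 1 probe set of Lcn5 at -2.77 and 1 of Lcn2 at -1.29, and most other points lie around 0.

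The genes around the lipocalins on chromosome 2 were compared to see whether the stretch moved as a whole. All members but Lcn2 lie between 25466709 and 25825546 (GRCm38.p6), and 26 of the 35 other genes in that stretch and in the 5 genes beyond each end were measured. None of the 26 was lower at a limma adjusted p under 0.05 (2.35% of all genes were), although Mamdc4 was with the median of probe sets (-0.59), Kcnt1 without dim probe sets (-0.24) and Sohlh1 by the analysis of variance (-0.17). In gene mean the 26 had a lowest difference of -0.29 and a median of 0.00. Abca2, Clic3, Fbxw5, Mamdc4, Sohlh1, Kcnt1, Ubac1 and Nacc2 had every Mgat1 cKO array below control (20.1% of all genes did). Traf2, Ccdc183, Lcn3 and Glt6d1 had every Mgat1 cKO array above it (11.2% of all genes did). Clic3 and Mamdc4 (both -0.29), Nacc2 (-0.220) and Ubac1 (-0.203) had lower differences than Lcn6 (-0.196). Glt6d1, a glycosyltransferase family gene between Lcn11 and Lcn9, rose by 0.85 (adjusted p = 0.0083), from 4.75 to 5.60, both below the background level. With the median of probe sets Glt6d1 stood at 0.30 (adjusted p = 0.53), and the analysis of variance did not call it (adjusted p = 0.098). Ccdc183, a coiled-coil gene carried on the array as 4921530D09Rik, rose by 1.86 (adjusted p = 1.9e-06). Both rises compare with 6.07% of all genes higher. Among the lipocalins between Lcn10 and Lcn9, which were not called in either direction, Obp2a (Lcn13 on the array) differed by 0.09, Obp2b (Lcn14) by 0.05, Lcn3 by 0.11 and Lcn11 by -0.12.

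**Figure D4:**
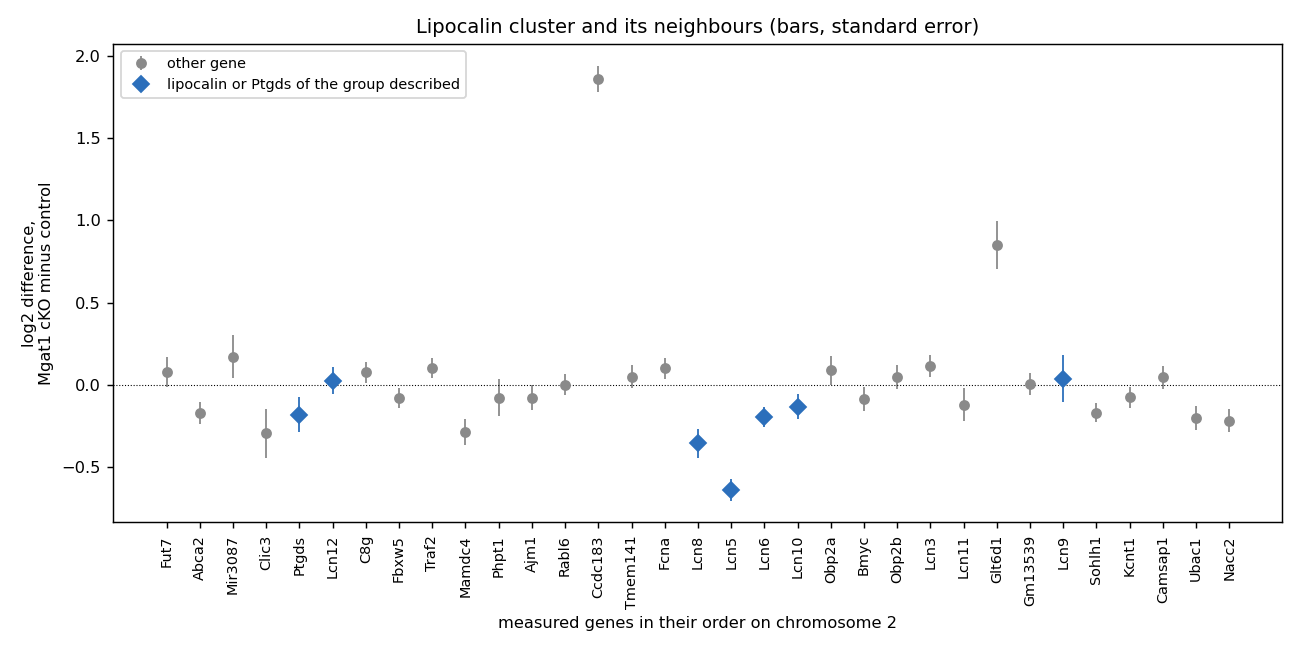
Log2 difference, Mgat1 cKO minus control, with its SE (vertical axis) of the measured genes in their order on chromosome 2 (horizontal axis), with the described genes as diamonds. Lcn5 stands at -0.64 and Lcn8 at -0.36. Lcn6, at -0.20, lies within the range of the neighbours, the lowest of which is at -0.29, and Ccdc183 stands at 1.86.

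The genes whose gene means followed Lcn5 most closely over the 6 arrays, among those with an SD over 0.3, were Defb47 (Pearson r = 0.99), Rnps1 (0.97), H2-D1 (0.97), H2-T23 (0.96) and Gpx5 (0.96). Defb47, a beta-defensin known from the epididymis, read 7.69, 7.72 and 7.90 in control and 6.46, 6.50 and 6.53 in Mgat1 cKO RNA. Gpx5, the glutathione peroxidase of epididymal fluid, read 6.35, 6.04 and 5.85 against 4.64, 4.31 and 4.06. Rnps1 encodes a splicing factor, and H2-D1 and H2-T23 encode class I histocompatibility antigens. These correlations follow mainly the step between the genotypes, since the 3 arrays of each come from 1 pool, and they describe 6 points only.

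Other genes of the lipocalin family, of prostaglandin metabolism, of lipocalin uptake and of the factors known to control these genes were examined next, and none passed the limma test on gene means of all arrays. Of 17 other lipocalins measured, limma called 0 lower and 0 higher. At an unadjusted p under 0.05 there were 2 lower (Orm1 and Rbp4) and 1 higher (Mup4), and the analysis of variance called 0. The share of all genes at an unadjusted p under 0.05 is not given here. Nothing is therefore read from such counts, in this list or in those that follow. Mup4, a major urinary protein, differed by 0.57 (adjusted p = 0.087) and Orm1, an acid glycoprotein of plasma, by -0.28 (adjusted p = 0.068). Mup4 passed without Mgat1 cKO replicate 2 (0.35, adjusted p = 0.030) and with an intensity trend (adjusted p = 0.031). The median of the list was 0.05.

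Of 22 genes that make, carry, break down or sense prostanoids, limma called 0 in either direction, with 3 lower and 2 higher at an unadjusted p under 0.05 and 0 by the analysis of variance. Ptger1, a receptor for prostaglandin E2, differed by -0.29 (adjusted p = 0.21). Hpgds, the other prostaglandin D synthase, which uses glutathione, differed by -0.26 (adjusted p = 0.27). Ptgdr and Ptgdr2, the receptors for prostaglandin D2, differed by 0.02 and -0.11, and the cyclooxygenases Ptgs1 and Ptgs2 by -0.05 and 0.26 (adjusted p = 0.14 for Ptgs2). With dim probe sets left out Tbxas1, the thromboxane synthase, was lower (-0.35, adjusted p = 0.033). The list had a median of -0.11.

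Of 9 receptors and retinoid carriers, limma called 0, with 2 lower at an unadjusted p under 0.05. These were Lrp1, a large endocytic receptor, at -0.18 (adjusted p = 0.11), which the analysis of variance called, and Crabp1, a cellular retinoic acid-binding protein, at -0.22 (adjusted p = 0.12), and both passed with an intensity trend. With dim probe sets left out Lmbr1l, a lipocalin receptor, was higher (0.21, adjusted p = 0.029). Lrp2, the endocytic receptor megalin, differed by 0.08 and Slc22a17, a receptor for LCN2, by -0.15. Of 16 factors known to act on lipocalin genes, limma and the analysis of variance called 0, with 3 lower at an unadjusted p under 0.05. Cebpa, a C/EBP factor, differed by -0.67 with an SE of 0.29 and overlapping arrays (adjusted p = 0.21), and Foxa3, a forkhead factor, by -0.24 (adjusted p = 0.080). Stat3, at -0.17, passed with an intensity trend (adjusted p = 0.032). The medians of these lists were -0.11 and -0.11, against -0.05 over all genes.

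Some genes of the epididymal epithelium other than the lipocalins were lower as well. Of 28 measured, 6 were lower (2.35% of all genes) and 0 higher (6.07%) by limma, and the median was -0.14. The largest falls were those of Gpx5 (-1.74, SE 0.17, adjusted p = 2.6e-04), Defb47 (-1.28, SE 0.07, adjusted p = 1.1e-05), Defb20 (-1.22, SE 0.13, adjusted p = 4.7e-04) and Adam7, a membrane metalloprotease-like protein of the epididymis (-0.71, SE 0.09, adjusted p = 0.0020). Cst11, a cystatin of the epididymis, fell by 0.49 (adjusted p = 0.0013). Wfdc9, a protease inhibitor-like gene, fell by 0.46 (adjusted p = 0.041) but did not pass when any array other than Mgat1 cKO replicate 1 was left out (adjusted p 0.050 to 0.13). The falls of Gpx5, Defb20 and Defb47 were known from earlier results of these data, so the list is not independent evidence of its direction. Without these 3 genes, a setting chosen after seeing the data, it held 3 of 25 lower and 0 higher, with a median of -0.13.

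The other 22 epididymal genes did not pass the test with all arrays, and of these Rnase12 passed without Mgat1 cKO replicate 2 (-0.49, adjusted p = 0.0085) and with an intensity trend (-0.39, adjusted p = 0.048). Crisp1, a secreted protein that coats sperm, differed by 0.15 (adjusted p = 0.22), Wfdc10 by -0.14 (adjusted p = 0.25) and Aqp9, a water channel of the efferent ducts and epididymis, by -0.06 (adjusted p = 0.75). Ces5a, the epididymal carboxylesterase, was higher on every Mgat1 cKO array by 0.25 without passing the test (adjusted p = 0.084). The mean level of the list lay between 5.44 and 5.46 on the control arrays and between 5.16 and 5.21 on the Mgat1 cKO arrays, and between 5.28 and 5.30 and between 5.14 and 5.19 without Gpx5, Defb20 and Defb47. Only 6 of the 28 genes (Crisp1, Defb15, Defb47, Wfdc9, Wfdc10 and Aqp9) stood above the background level over all arrays. The part of epididymal cells in the differences of the lipocalins was not tested.

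**Figure D5:**
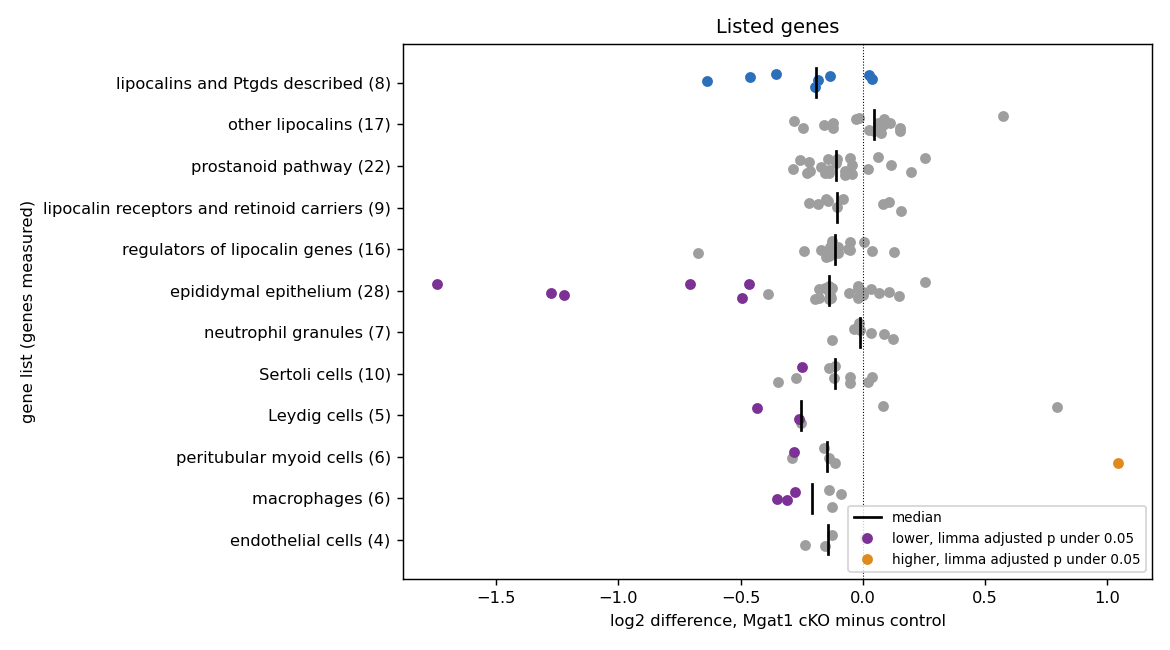
Log2 difference, Mgat1 cKO minus control (horizontal axis), of each measured gene of the lists (vertical axis), with the list median as a black line and genes past the limma test coloured. In the epididymal list 6 of 28 genes are coloured, the lowest at -1.74, and most of the rest lie close to 0.

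Markers of other cell types were put to the same test. By limma 2.35% of all genes were lower and 6.07% higher, to be set beside the counts of every list below. The list medians were -0.25 for Leydig, -0.21 for macrophage, -0.15 for peritubular myoid, -0.14 for endothelial and -0.11 for Sertoli cell markers. They were -0.03 for germ cell and -0.01 for neutrophil markers, against -0.14 for the epididymal list and -0.05 over all genes. Of 7 genes known from neutrophils, which also make Lcn2, limma called 0 in either direction. Of these, 0 had an unadjusted p under 0.05, and the analysis of variance called 0. S100a9 differed by -0.13 and Ngp by 0.12. None of the 7 stood above the background level, and their mean level lay between 4.45 and 4.50 on the control and 4.42 and 4.53 on the Mgat1 cKO arrays. Of 6 macrophage markers, 3 fell, Cx3cr1 by 0.35 (adjusted p = 0.013), Csf1r by 0.31 (adjusted p = 0.028) and Cd68 by 0.28 (adjusted p = 0.035). The mean of the macrophage list lay between 6.51 and 6.59 on the control and 6.33 and 6.37 on the Mgat1 cKO arrays.

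Of 10 Sertoli cell markers only Fshr, the receptor of follicle-stimulating hormone, fell, by 0.25 (adjusted p = 0.041), and the list mean lay between 8.06 and 8.13 in control and 7.94 and 7.98 in Mgat1 cKO RNA. Of 5 Leydig cell markers, 2 genes of steroid synthesis fell, Star by 0.43 (adjusted p = 0.0086) and Cyp17a1 by 0.26 (adjusted p = 0.032). Cyp11a1 differed by -0.25 (adjusted p = 0.059). Hsd3b1 (0.08) and Insl3 (0.80, adjusted p = 0.20, 1 probe set) had higher means with overlapping arrays. The Leydig list mean overlapped between the genotypes, at 8.14 to 8.35 in control and 8.19 to 8.36 in Mgat1 cKO RNA. Of 6 peritubular myoid markers Myh11 fell by 0.28 (adjusted p = 0.026) and Actg2, a smooth muscle actin, rose by 1.05 (adjusted p = 6.9e-05), and of 4 endothelial markers limma and the analysis of variance called 0, with Pecam1 lower at an unadjusted p under 0.05 (-0.23, adjusted p = 0.12) and Tek at -0.15 (adjusted p = 0.42). Fshr, Cyp17a1, Myh11 and Csf1r did not pass when any 1 of the 6 arrays was left out (adjusted p 0.050 to 0.14). Cd68 passed only with all arrays or without control replicate 3, and Cx3cr1 did not pass without control replicate 2 (adjusted p = 0.053) or control replicate 3 (adjusted p = 0.057). With the median of probe sets none of the falls in the Sertoli, Leydig, myoid and macrophage lists passed (Star at -0.50, adjusted p = 0.13, the others from 0.16 to 0.28), and the analysis of variance did not call Star (adjusted p = 0.051) or Csf1r (adjusted p = 0.063). Some alternatives called further markers lower that the limma test on all arrays did not, namely Cyp11a1, Cnn1 and Des without dim probe sets, Rhox5 without Mgat1 cKO replicate 1, and Cyp11a1, Acta2, Rhox5, Sycp3 and Dazl with an intensity trend.

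Of 10 germ cell markers, the genes of spermatids Tnp2 (3.33), Acrv1 (2.54), Prm1 (2.22) and Dbil5 (0.57) rose, with adjusted p from 2.4e-07 to 8.7e-04, and 0 fell, whereas Ddx4, known from spermatogonia through round spermatids, differed by 0.01 (adjusted p = 0.95). The germ cell list mean lay between 8.64 and 8.70 in control and between 9.43 and 9.49 in Mgat1 cKO RNA. RMA values are relative to the other genes of the same array. Whether these marker shifts came from cell content or from RNA per cell was not tested. Any part of cell content in the lower lipocalin values was not tested either.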

How the data were processed

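The deposited table holds log2 values that the authors made in Affymetrix Expression Console by RMA, which corrects background, sets the arrays to a common distribution and summarises probes. Its version is not given in the sources used here. It holds exon-level probe sets, and the array medians lay between 6.85 and 6.87. Of 269751 probe sets, 233753 carried 1 gene symbol in GEO's platform annotation, 5139 several and 30859 none, and only the first were used, averaged per gene (23152 genes, median 8 probe sets). Genes and probe sets were fitted with limma 3.58.1 (lmFit and eBayes without a trend) in R 4.3.3 on all 6 arrays, with Benjamini-Hochberg adjustment over all genes and a call at an adjusted p under 0.05. All adjusted p-values are from limma unless the analysis of variance, the test of the methods, is named. The fit was tested on simulated data. An exact permutation test of 3 against 3 arrays cannot go below 0.10.

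The members and lists were chosen with earlier results of these data known. The text names all members, every called gene of the other lists (with values for at least the 4 largest), the 2 largest differences of a list without calls, called neighbours and the 5 genes most like Lcn5. Single probe sets beyond the largest and smallest of a member, and listed genes beyond that rule, were named after their values were seen. Of 145 genes in 12 lists, 139 were measured. Gene positions, promoters and current symbols come from RefSeq (GRCm38.p6). Protein sequences were not used here, so a planned comparison of the proteins was not run. Arrays with the same number were not paired (correlations of their deviations from the group means of -0.02, -0.06 and -0.02). Plots used matplotlib 3.10.9 under Python 3.11.15. The alternatives were the gene summary, a filter on dim probe sets, the normalization, leaving out each array, a replicate block, the analysis of variance, an intensity trend and a 2-fold threshold.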

Additional observations from a re-analysis of the deposited data

How the results depend on the processing

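Taking the median of the probe sets in place of their mean moved Lcn5 to -0.75, Lcn2 to -0.75, Lcn6 to -0.45 and Lcn12 to 0.20, left 135 genes lower in all, gave 1 neighbouring gene lower and 1 higher, and left 0 of the falls of Sertoli, Leydig, myoid and macrophage markers past the test. Leaving out dim probe sets moved Lcn5 to -0.40 and Lcn6 to -0.11 and could not give Lcn8, Lcn9 or Lcn10. That setting left 3 epididymal genes lower, namely Adam7, Defb47 and Wfdc9. Defb20 did not pass (-0.86, adjusted p = 0.15), and Gpx5, Cst11 and the neighbour Glt6d1 could not be given. The same setting gave 1 neighbour lower, 1 higher and 823 genes lower in all. Of the 8 genes, 3 had every Mgat1 cKO array below control with the median of the probe sets, against 4 with the mean. Without dim probe sets the number was also 3, among the genes that could be given. Without its probe set of the largest fall, Lcn5 was at -0.37, Lcn6 at -0.11 and Lcn10 at -0.0013. With each array left out in turn, Lcn5 ranged from -0.67 to -0.61 and Lcn2 from -0.53 to -0.38, the genes lower in all numbered 181 to 324 (fewer arrays) and those higher 1148 to 1228, and 0 to 1 of the 8 genes had every Mgat1 cKO array above control (Lcn9, without Mgat1 cKO replicate 3). The analysis of variance gave 1 neighbour lower and 1 higher (Glt6d1 had an adjusted p of 0.098), and an intensity trend gave 1385 genes lower. With the 2-fold threshold, 3 epididymal genes, 1 neighbour (higher) and, over all genes, 8 lower and 586 higher remained. Without Gpx5, Defb20 and Defb47, 3 epididymal genes were lower. The cause of these moves was not tested.

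Same-numbered arrays did not deviate together, so the numbers were not taken as pairs. With the replicate number as a block, 208 genes were lower against 543, and the 6 epididymal genes, the 2 neighbours and all differences of the 8 genes stood as before. Centring the arrays or repeating the quantile normalization changed no difference of the 8 genes by more than the spread between arrays. With 3 arrays of 1 pool per genotype, and 6 of the 8 genes below the background level over all arrays, the number of arrays and the signal over background limit what can be seen of the dim genes.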
